A study of Mus musculus with 8 samples.

Results

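Knockout and wild type were compared at 4 h of T cell stimulation, on 2 of the 8 arrays in the series. The samples were chosen by their titles, ko 501_4h and wt 502_4h, and every probe set of both arrays entered the comparison. Spleen cells of Gfi1-knockout and wild-type C57Bl/6 mice had been enriched for T cells with a magnetic panT-cell kit. Both cultures received antibodies to CD3 and CD28 at 2 µg/ml for 4 h, and TRIzol-extracted RNA, about 1 µg per sample, was hybridised as biotin-labelled cRNA to Affymetrix MOE430A_2.0 arrays. The other 6 arrays hold cells of the same genotypes before the antibodies (0 h) and after 8 and 24 h. The labels carry 1 source number per genotype, 501 for knockout and 502 for wild type, and do not give the number, age or sex of the mice, whether animals were pooled, or which part of Gfi1 was deleted. With 1 array a side no spread within a group can be measured. Differences are therefore given by their size, with no p-value, and a difference between genotypes cannot be told apart from one between these samples. No array holds cells cultured for 4 h without the antibodies.

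Gfi1 is a zinc finger transcription factor that represses genes by recruiting histone demethylases and deacetylases. It is known for restraining myeloid gene programmes in progenitors, for its rapid rise when T cells are activated, and for a part in Th2 cell growth and in holding back Th17 cytokines. CD3 and CD28 antibodies stand in for antigen: the receptor complex signals through calcium and NFAT, MAP kinases and AP-1, and NF-kB, and within hours a T cell makes early transcription factors and cytokines, well before it divides.

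The signals are array units as deposited. Signals under a floor of 141.88 were set to it before log2 was taken, so a difference against a signal at the floor is a lower bound. All differences are knockout-labelled minus wild-type-labelled on the log2 scale, and "higher" or "lower" in a count means at least 2-fold. Between 56.5% and 61.5% of probe sets were above the floor on the 8 arrays, and 59.3% on the wild-type-labelled one at 4 h. The 3' to 5' signal ratio of Gapdh was 0.792 and 0.725, and that of beta-actin 1.16 on both. Gfi1 itself gave 5979 on the knockout-labelled and 6359 on the wild-type-labelled array at 4 h (-0.09), after 2316 and 882 at 0 h. The sources used here do not place its probe set inside or outside the deletion. The labels are therefore unchecked by Gfi1, and each array is named by its label. Xist, the RNA of the inactive X chromosome, gave 9284 and 12281.

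Of 15062 probe sets tested, 1555 (10.3%) were higher and 1023 (6.79%) lower. By gene, 996 of 8457 (11.8%) were higher and 555 (6.56%) lower, around a median of 0.00 over all genes. The balance depended on the scaling: after dividing each array by its median, 1365 probe sets were higher and 1474 lower, and 876 genes against 787. That scaling moved the median of all probe sets from -0.02 to -0.15. The higher side reached farther under the deposited scaling. There 324 genes were at least 4-fold higher and 49 at least 4-fold lower, and at 16-fold the numbers were 34 and 1, the 1 being Il4. Of the 996 higher genes 227 were at the floor on the wild-type-labelled array, and of the 555 lower ones 41 on the other. Where a higher gene had more than 1 tested probe set (379 genes), all lay past 2-fold the same way for 191, and for 0 did any lie past it the other way. For the lower genes these numbers were 224, 111 and 0.

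**Figure D1:**
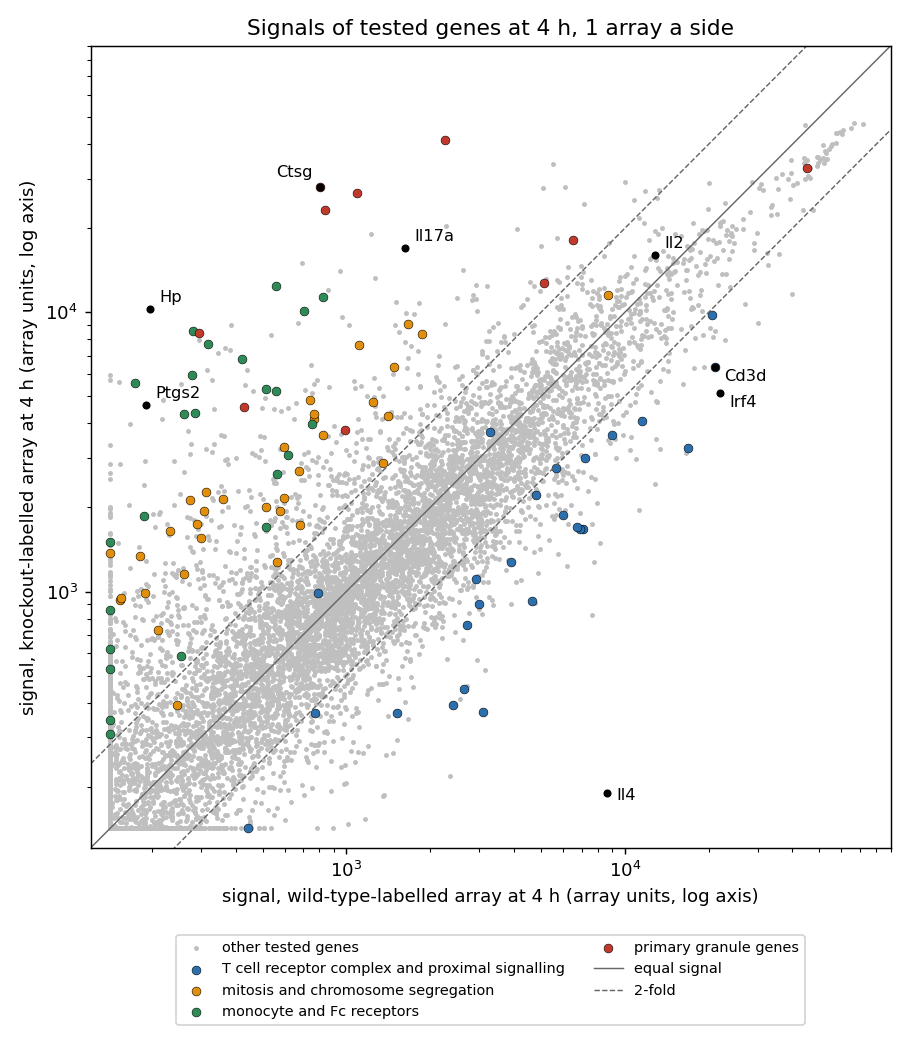
Signal of each tested gene on the knockout-labelled 4 h array (vertical, log axis) against the wild-type-labelled 4 h array (horizontal, log axis), in array units, with signals under the floor of 141.88 drawn at it. Coloured points mark 4 gene lists and black points 8 single genes, the solid line is equal signal and the dashed lines are 2-fold. Granule, monocyte and mitosis genes lie above the upper dashed line for the most part, 23 of 25 T cell receptor genes lie below the lower one, and Il4 stands farthest below.

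Markers of myeloid cells were among the largest differences although the cells had been enriched as T cells. The primary granules of neutrophil precursors hold serine proteases and the peroxidase Mpo, and 9 of the 10 tested genes of this list were higher, with a median of 3.81. Ctsg, the protease cathepsin G, gave 28004 against 802, a difference of 5.13, and had given 22212 against 1104 before the antibodies. Mpo gave 41520 against 2264 (4.20), after 33134 against 3142. The neutrophil elastase gene Elane gave 23350 against 841 (4.79), and proteinase 3, Prtn3, 26714 against 1088 (4.62). These genes were already high in the knockout-labelled cells before the antibodies, and their signals there were similar after 4 h. Over the list the median change from 0 to 4 h was 0.13 in knockout-labelled cells and -0.47 in wild-type-labelled cells. The proteoglycan Srgn, shared by granules of many blood cells, was the member that was not higher (32829 against 44968).

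The 250 bases before the start of these 4 granule genes are shown because they share a feature the comparison did not use, a match to GAGGAA, the core that the myeloid factor PU.1 (encoded by Spi1) can bind. The sequences are from RefSeq on GRCm38.p6, each 5′ to 3′ on the gene's own strand, and capitals mark GAGGAA or its reverse complement.
Mpo, chr11:87793534-87793783, plus strand: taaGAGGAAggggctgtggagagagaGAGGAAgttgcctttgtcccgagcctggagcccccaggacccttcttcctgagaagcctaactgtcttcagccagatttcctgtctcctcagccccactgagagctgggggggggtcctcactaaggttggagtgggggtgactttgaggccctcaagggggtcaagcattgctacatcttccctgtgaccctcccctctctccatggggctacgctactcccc
Prtn3, chr10:79879417-79879666, plus strand: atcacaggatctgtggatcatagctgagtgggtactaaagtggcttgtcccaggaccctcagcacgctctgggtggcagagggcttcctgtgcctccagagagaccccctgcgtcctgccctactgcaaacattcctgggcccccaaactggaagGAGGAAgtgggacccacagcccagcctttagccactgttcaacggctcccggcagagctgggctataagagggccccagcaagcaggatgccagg
Elane, chr10:79886062-79886311, plus strand: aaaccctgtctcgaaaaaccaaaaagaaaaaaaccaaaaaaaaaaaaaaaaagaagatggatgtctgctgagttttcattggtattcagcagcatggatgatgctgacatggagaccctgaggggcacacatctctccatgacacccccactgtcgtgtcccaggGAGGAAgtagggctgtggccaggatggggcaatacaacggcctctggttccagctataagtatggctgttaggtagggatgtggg
Ctsg, chr14:56102575-56102824, minus strand: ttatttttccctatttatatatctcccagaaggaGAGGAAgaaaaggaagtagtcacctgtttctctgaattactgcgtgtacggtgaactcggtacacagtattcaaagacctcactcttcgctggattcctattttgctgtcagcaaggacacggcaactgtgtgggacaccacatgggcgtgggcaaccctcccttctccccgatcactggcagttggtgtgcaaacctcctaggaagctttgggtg
Mpo has 2 matches and the others 1 each. These 4 windows are shown for having a match, so a match in all 4 carries no weight. Searched on both strands of the 250 bases, the motif was in 23.3% of all 32851 promoters in the table. It was in 223 of 817 promoters of higher genes (27.3%) and in 111 of 444 of lower genes (25%). Both shares were thus somewhat above that of all promoters, and a part of PU.1 in the differences was not tested. A match describes letters and does not show a bound site. Spi1 gave 3384 against 335 (3.34), and other myeloid factors with large differences included Cebpd (1912 against 62, at least 3.75), Hhex (3.23), Nfe2 (2.78) and Cebpb (11111 against 2818, 1.98). In that list of 18 tested factors 9 were higher and 1 lower, the erythroid Gata1 at -1.08.

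Acute phase, secondary granule and monocyte genes were high beside the proteases. The widest difference with both signals above the floor was Hp, haptoglobin, at 10274 against 198, or 51.9-fold. Tfec, a transcription factor of macrophages, gave 5652 against 152 (5.22). The membrane protein Ms4a3, a mark of granulocyte and monocyte precursors, gave 8418 against 295 (4.84), and the stress protein Nupr1 4842 against 220 (4.46). Of the secondary granule and mature neutrophil genes 9 of 14 tested were higher, among them the siderophore-binding lipocalin Lcn2 (7132 against 345, 4.37), the chitinase-like Chil3 (4.34), the collagenase Mmp8 (3350 against 100, at least 4.56) and the calcium-binding S100a8 (20334 against 2288, 3.15). Camp, Ngp and Ltf, which share secondary granules with Lcn2, stood at -0.82, -0.81 and -0.21, with signals of 132 to 978 on both arrays. The list was therefore uneven.

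Of 29 listed monocyte receptors and Fc receptor chains 24 were tested and all 24 were higher, with a median of 3.34 and differences from 1.12 upwards (Itgam, a bound). The lectin Clec5a was the highest (5563 against 174), before the glutathione transferase Mgst1 (8582 against 282, 4.93). Fcgr3, an activating receptor for immunoglobulin G, gave 7713 against 319 (4.59), and its signalling chain Fcer1g 6794 against 420 (4.01). Csf1r, the receptor for macrophage growth factor, gave 10097 against 704, and all 3 of its probe sets were higher, by 2.45 to 4.57. Csf2rb, the shared chain of the GM-CSF and IL-3 receptors, gave 3994 against 167 (4.58). Some of these were higher at 4 h than at 0 h in the knockout-labelled cells. Clec4e, a C-type lectin that senses damaged cells, went from 1033 to 12414 there and from 147 to 559 in the wild-type-labelled arrays. Clec4d, its partner, went from 389 to 4372 there and stayed at 325 and 286 in wild type. Cd14, the lipopolysaccharide co-receptor, went from 541 to 4314 against 133 and 262.

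Among genes at the floor in the wild-type-labelled 4 h array, Igsf6, an immunoglobulin-family protein of monocytes, was at least 41.9-fold higher (5942 against a signal of 8.9). The secreted Dmkn (at least 5.33), Tgfbi (4.34), the lipase Lpl (4.22), the phospholipase Pla2g4a (4.16), the lipopolysaccharide-binding protein Lbp (3.83) and the receptor Trem3 (3.81) followed. Annexins, S100 proteins and vimentin, expressed by myeloid and by effector T cells, were higher in 16 of 19, with a median of 2.08, led by Anxa1 (9018 against 386, 4.55) and Anxa3 (4.44). Of the phagocyte oxidase and lysosomal genes 14 of 19 were higher (median 1.5). The oxidase subunit Cybb, whose product makes superoxide, gave 5513 against 432 (3.68).

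Lists of other cell types were mixed, beside 11.8% higher and 6.56% lower over all genes. Of 10 tested genes of eosinophils, basophils and mast cells 6 were higher, among them the eosinophil granule protein Prg2 (5232 against 460, 3.51) and the histamine-making enzyme Hdc (1842 against 138, at least 3.70). On the wild-type-labelled array 7 of the 10 were at the floor, so the differences of those 7 are lower bounds. Of 10 tested splenic macrophage genes 2 were higher and 0 lower, with a median of 0.15. The 2 were Vcam1 (2.76) and Hmox1 (2.62), neither confined to macrophages. On each 4 h array 5 of the 10 were at the floor. C1qa, C1qc, Cd5l and Slc40a1 were under it on both, so a difference in them could not be seen. B cell surface genes had 2 higher and 5 lower of 13, with Ms4a1, the CD20 antigen, at 192 against 880 (-2.19). Immunoglobulin and plasma cell genes had 6 higher of 11, with the light chain segment Iglv1 at 1.77, and 1 lower, the factor Irf4 (-2.09). The heavy chain gene Ighm differed by 0.07 at its brightest probe set, while 6 of its 8 probe sets were higher, by up to 5.82. Dendritic, platelet and natural killer cell lists had 0 higher and 1, 0 and 2 lower, and red cell genes had 0 higher and 2 lower of 11. In these mixed RNA samples fewer cells of a type and less RNA per cell cannot be told apart. Summed over tested members, monocyte receptor signals came to 105729 against 8674 and T cell receptor complex signals to 53792 against 155552, and what part this played in the results below was not tested.

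**Figure D2:**
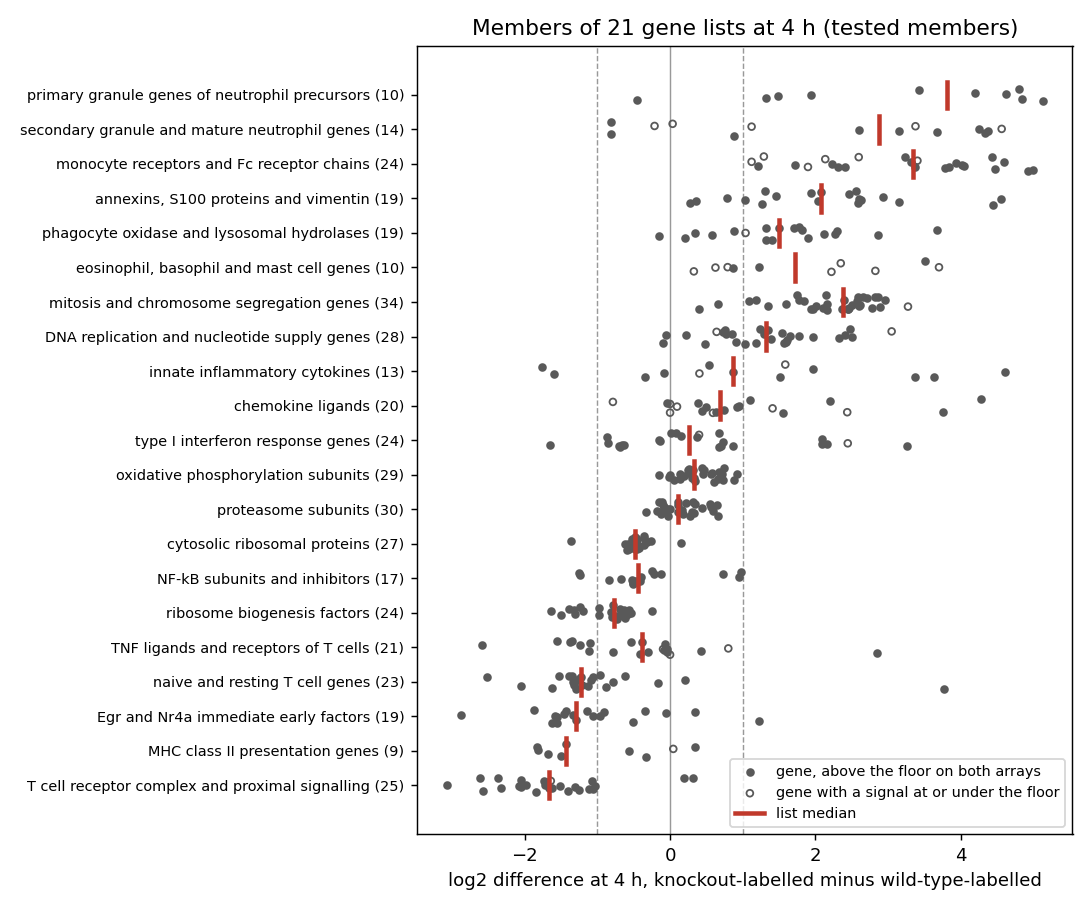
Log2 difference at 4 h (horizontal, knockout-labelled minus wild-type-labelled) of the tested members of 21 gene lists, with the number tested in brackets. Filled points had signals above the floor on both arrays, open points had a signal at or under it, red bars are list medians and dashed lines mark 2-fold. The medians run from 3.81 for primary granule genes to -1.67 for the T cell receptor complex, while oxidative phosphorylation and proteasome genes sit inside the dashed lines.

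T cell genes were lower as a group. Of 25 tested genes of the receptor complex and its proximal signalling 23 were lower and 0 higher, with a median of -1.67. Cd3d, a chain of the receptor complex, gave 6369 against 21068 (-1.73), Cd3g 3000 against 7175 (-1.26), and Cd247, the zeta chain, 1668 against 6913 (-2.05, and -1.94 to -2.05 over its 3 probe sets). The widest gaps were in signalling proteins: the adaptor Trat1 (369 against 3100, -3.07), Rasgrp1, which activates Ras (393 against 2413, -2.62), the kinase Txk (446 against 2656, -2.57) and the adhesion receptor Cd2 (3268 against 16901, -2.37). Zap70, the kinase at the receptor, and Lat, its adaptor, lay closer to the threshold at -1.12 (the other probe set -0.93) and -1.03. Thy1 (0.19) and Vav1 (0.32) were the members not lower. Thy1 is a surface protein of mouse T cells and Vav1 an exchange factor found in blood cells in general. Cd8a gave 1238 against 6199 (-2.32) and Cd4 239 against 989 (-2.05). With Cd8b1 (-1.81) they were the 3 lower of 7 tested lineage genes, whose median was -0.54. Zbtb7b, a factor of the CD4 lineage, was higher (523 against 48, at least 1.88), but its other probe set differed by 0.20. For most of these genes the gap was there at 0 h: the list's median was -1.61 then, and its changes to 4 h were -0.17 and 0.04.

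Among genes that mark naive and resting T cells 16 of 23 were lower, with a median of -1.23. Ccr7, the receptor that guides naive T cells to lymph nodes, gave 1961 against 11252 (-2.52), Lef1, a factor of the naive state, 266 against 1105 (-2.06) and Satb1, a chromatin organiser, 7959 against 22909 (-1.53). Igfbp4, which resting T cells express, ran the other way at 9174 against 671 (3.77), with all 6 of its probe sets higher by 1.94 to 4.02. At 0 h it had given 13359 against 8638, so its signal was far smaller after 4 h in the wild-type-labelled cells and only somewhat smaller in the others. Bcl2, the survival factor, gave 186 against 1349 (-2.86). Among regulatory T cell genes 6 of 16 were lower and 3 higher. The receptor Gpr83 was at least 6.33-fold lower (106 against 899), while Foxp3, the defining factor, gave 400 on both arrays.

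Cytokines split in opposite directions at 4 h. Il4, the signature cytokine of Th2 cells, gave 190 on the knockout-labelled array and 8656 on the wild-type-labelled one, 45.5-fold lower and the lowest of all genes measured on both. At 0 h its signals were 28.9 and 254, and in the knockout-labelled cells it stood little above the floor after 4 h. Il17a, which defines Th17 cells, gave 16998 against 1627 (3.38, 10.4-fold), after 374 against 119 at 0 h. Il2, the T cell growth factor, differed far less: 16012 against 12882 (0.31), from under the floor at 0 h in both. Ifng, the Th1 cytokine, gave 14703 against 6989 (1.07), and Tnf 6269 against 6659 (-0.09). Il2 and Tnf were thus under 2-fold apart. Receptor complex genes were lower on the same array, and how that bears on the cytokines was not tested.

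The 250 bases before the start of Il4 and Il17a are shown for this contrast. For Il4 the more upstream of 2 windows in the table was taken. Capitals mark GGAAA or its reverse complement in Il4, the core bound by NFAT, and AATCACNGC, a core bound by Gfi1, in Il17a. Build and source are as above.
Il4, chr11:53618666-53618915, minus strand: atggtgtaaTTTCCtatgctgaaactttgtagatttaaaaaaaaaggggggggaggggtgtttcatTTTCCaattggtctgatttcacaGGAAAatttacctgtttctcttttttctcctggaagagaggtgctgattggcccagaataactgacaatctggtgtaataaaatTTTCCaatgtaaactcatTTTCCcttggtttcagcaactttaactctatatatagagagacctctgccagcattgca
Il17a, chr1:20730655-20730904, plus strand: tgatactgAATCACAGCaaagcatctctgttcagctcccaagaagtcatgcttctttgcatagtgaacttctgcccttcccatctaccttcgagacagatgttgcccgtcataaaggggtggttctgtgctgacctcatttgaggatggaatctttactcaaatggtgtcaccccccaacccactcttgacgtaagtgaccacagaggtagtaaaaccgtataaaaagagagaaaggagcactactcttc
This Il4 window has 5 matches to GGAAA, which is in 55.6% of all promoters in the table, and 0 to the longer Gfi1 motif. The other Il4 window and the Il17a window have 0 matches to GGAAA. Il17a has 1 match to AATCACNGC, found in 0.776% of all promoters and, counting the first window per gene, in 63 of 6920 tested genes. Of those 63 genes 8 were higher and 3 lower, with a median of 0.00, beside 11.8% and 6.56% over all genes. Il17a had the largest difference among the 63, followed by the repair factor Rad51ap1 (2.26), while Rbm4b was lowest (-1.40). These 2 were named after their values were seen. The shorter Gfi1 core AATC is in 69.0% of promoters and sets few apart. These letters do not show whether Gfi1 was bound.

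The rest of the helper cell lists were mixed. Of 15 tested Th2 genes 6 were lower and 2 higher. Ccr8, a receptor of Th2 cells, gave 244 against 1075 (-2.14), Ccr4, another, gave 104 against 485 (-1.77 or below), Il13 gave 188 against 386 (-1.04), and the lineage factor Gata3 367 against 769 (-1.07). The higher members, Il6 (3.62) and Il3 (1584 against 287, 2.46), are also made by other cells. Among Th1 genes 5 of 14 were lower, including Il12rb2, an IL-12 receptor chain (52 against 537, -1.92 or below), the lineage factor Tbx21 (1389 against 4725, -1.77) and Stat4 (-1.56), although Ifng was higher. Of 12 Th17 genes 4 were higher, Il17a, Il1r1 (at least 1.22), Il17re (at least 1.03) and Il21 (1.02), and 1, Irf4, lower. Irf4, a factor that many effector cells need, gave 5161 against 21952 (-2.09), with its other probe set at -2.48.

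Inflammatory genes known from activated myeloid cells had low signals on both 0 h arrays and were higher in the knockout-labelled cells at 4 h. Ptgs2, the inducible prostaglandin synthase, went from 45.3 to 4639 there and from 7.7 to 191 in the wild-type-labelled arrays, a difference of 4.61 at 4 h. Il6 went from 28.2 to 2038 against 8.3 to 165 (3.62), and Il1b from 188 to 3639 against 437 and 354 (3.36). Acod1, which makes itaconate in macrophages, went from 26.1 to 15027 against 50.5 to 696 (4.43). Acod1 was chosen after its values were seen, as were Tlr2 and Gpr84 here. Tlr2, a receptor for bacterial lipoproteins, went from 249 to 2854 against 127 to 154 (4.21), and Gpr84, a fatty acid receptor, from 120 to 1620 against 19.2 to 92.3 (at least 3.51). Saa3, an acute phase protein, went from 170 to 7963 against 139 to 296 (4.75). In both genotypes most of these signals were larger at 4 h than at 0 h, and the distance between them opened in that time.

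Of 13 tested innate cytokine genes 6 were higher and 2 lower. From 0 to 4 h the list's median change was 2.84 with the knockout label and 0.57 with the wild-type label. The lower members were Il12b, a subunit of IL-12, at 327 against 1109 (-1.76) and Lif, at 1882 against 5674 (-1.59). Of 20 chemokine ligands 7 were higher and 0 lower: Cxcl11 (7351 against 381, 4.27), Ccl9 (4511 against 335, 3.75), Cxcl9 (28174 against 6104, 2.21) and Cxcl10 (29400 against 10028, 1.55) among them. Cxcl9, Cxcl10 and Cxcl11 bind Cxcr3 and are induced by interferon gamma. Their 0 h signals lay between 16.3 and 212 on both arrays, whereas Ccl9 had given 3043 against 210 already. Monocyte receptor genes were higher in 24 of 24 on the same arrays, and their part in these differences was not tested.

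**Figure D3:**
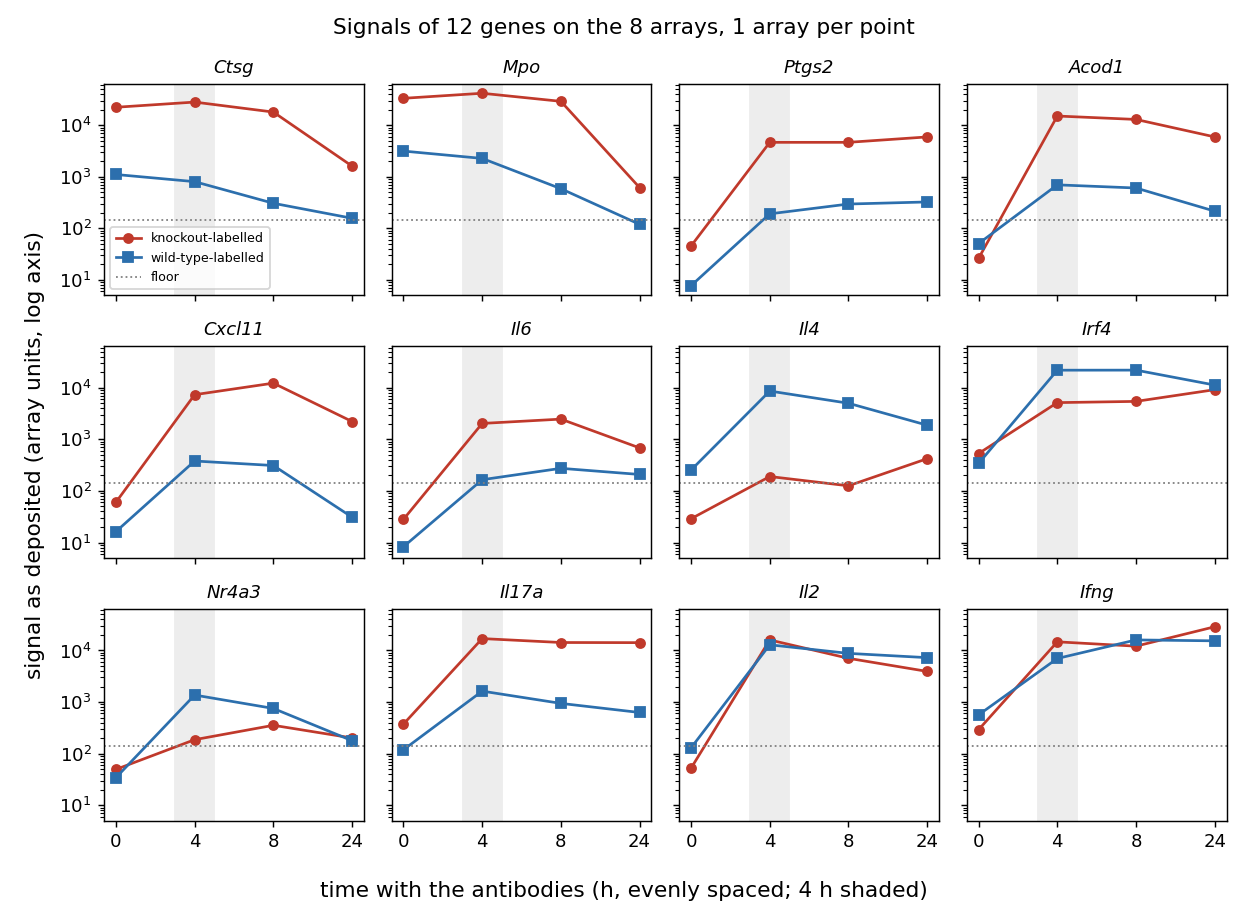
Deposited signal (vertical, array units, log axis) of 12 genes at 0, 4, 8 and 24 h in the knockout-labelled (red circles) and wild-type-labelled (blue squares) arrays, 1 array per point, with 4 h shaded and the floor dotted. Ctsg and Mpo lie apart at 0 h, Ptgs2, Acod1, Cxcl11 and Il6 separate by 4 h, Il4 and Il17a separate in opposite directions, and the Il2 lines nearly meet at 4 h (16012 and 12882).

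Transcription factors of early activation were lower. Of 19 tested Egr, Nr4a and related immediate early genes 12 were lower and 1, Ier3 (1.23), higher, with a median of -1.30. Nr4a3, an orphan receptor induced through the T cell receptor, gave 186 against 1367 (-2.87), from under the floor in both at 0 h. Egr2, which limits T cell activation, went from 246 to 5534 against 668 to 16224 (-1.55), and Egr1 from 3203 to 8584 against 2611 to 21139 (-1.30). Nr4a1 gave 14825 against 32700 (-1.14). At 0 h the list's median difference was -0.58, so by its medians the gap was wider at 4 h. The list's median change from 0 h was nearly equal, 1.02 and 1.05, but a median of changes need not match a change of medians. Egr1 and Nr4a3 gained less in the knockout-labelled cells.

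Some feedback and relay genes were lower too, beside 6.56% lower and 11.8% higher over all genes. The MAP kinase phosphatases Dusp10 (-2.57), Dusp6 (-2.00), Dusp2 (-1.71) and Dusp1 (-1.63) and the inhibitor Spry1 (-1.48) were the 5 lower of 11 in their list. In the AP-1 family 4 of 13 were lower, Maff at -1.56, Atf3 at -1.33, Fos at -1.21 and Junb just at the threshold (4179 against 8370), and Jdp2 was higher (2.06). Among NF-kB genes only Rel (1290 against 3059, -1.25) and the inhibitor Tnfaip3 (5662 against 13349, -1.24) were lower of 17. The other 15 were under 2-fold, up to Nfkbie at 0.98, and Nfkbia gave 33290 against 44495 (-0.42). In NFAT and calcium signalling 4 of 11 were lower, from the calcineurin subunit Ppp3cc (-2.42) to the calcium channel Orai1 (-1.15). Of 21 TNF family genes 7 were lower, led by the death ligand Fasl (523 against 3155, -2.59), and 1 higher, the receptor Tnfrsf1a (4746 against 662, 2.84), which myeloid cells carry. Ctla4 (-1.26), Icos (-0.83) and the IL-2 receptor chain Il2ra (-0.86) also had lower signals. The last 2 were under 2-fold at the brightest probe set and past it at the other (-1.23 and -1.17). The CD28 family and inhibitory receptors had 6 lower of 15 and 1 higher, the inhibitory receptor Havcr2 (387 against 92, at least 1.45). The list of IL-2, its receptor and feedback genes had 2 lower of 13, Stat5a (-1.12) and Jak1 (-1.06), and 1 higher, the cytokine Il15 (688 against 175, 1.98).

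Several of the lowest genes had similar or low signals in both genotypes at 0 h and were far apart at 4 h. Hilpda, a lipid droplet protein, gave 224 and 327 at 0 h and 219 against 2352 at 4 h (-3.42). Prnp, the prion protein, gave 434 and 363, then 823 against 7638 (-3.21, and -3.21 by both probe sets). Ramp3, a partner of peptide hormone receptors, gave 135 and 331, then 1276 against 7729 (-2.60). Ahi1 gave 184 and 258, then 147 against 1014 (-2.78), though its other probe set differed by -0.79. The drug transporter Abcb1a (153 against 1162, -2.92) had been 117 against 301. In the knockout-labelled cells only Ramp3 among these 5 gained more than 2-fold over the 4 h. Ephx1, an epoxide hydrolase, was different: it was apart at 0 h (546 against 2827) and stayed so (412 against 2554, -2.63). At the floor in the knockout-labelled cells were Sh3gl3 (-2.47 or below), Abcb9 and Als2cl (-1.84 each), Setd4 (-1.78, with 2 of its 3 probe sets past 2-fold) and the DNA polymerase gene Polm (-1.68).

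Genes of dividing cells were higher at 4 h. Of 34 tested mitosis genes 32 were higher and 0 lower, with a median of 2.38. Mki67, a marker of cycling cells, gave 9091 against 1670 (2.44), the spindle checkpoint kinase Bub1 2127 against 275 (2.95, and 0.62 by its other probe set), the kinase Aurkb 1339 against 181 (2.89), and the spindle motor Cenpe 1371 against 59 (at least 3.27). At 0 h the list's median was 1.03, and at 24 h it was -0.77. From 0 to 4 h it did not move in the knockout-labelled arrays (0.00) and was lower in the wild-type-labelled ones (-1.21), which is where the distance grew. Of 28 DNA replication genes 18 were higher, with a median of 1.31 that turned to -1.61 at 24 h. The thymidine kinase Tk1 was at least 3.05 higher (1173 against 112) and the helicase factor Cdc45 2.5 higher, while Pcna (-0.10) and Cdt1 (-0.06) were level. Of the G1 genes 8 of 18 were higher, among them Ccne2 (2.5) and the cell cycle inhibitor Cdkn1a (5824 against 1262, 2.21). The D cyclins differed: Ccnd2 gave 8948 against 17244 (-0.95, and -1.25 to -0.62 over its 7 probe sets), while Ccnd3 was higher (1.18) and Ccnd1 differed by 0.22. Primary granule genes, a mark of dividing myeloid precursors, were higher in 9 of 10 on the same array, and their part in this was not tested.

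Growth genes pointed the other way from mitosis genes. Myc, which drives growth when T cells are activated, gave 7348 against 16418 (-1.16), from 4320 and 3225 at 0 h. Of 24 tested ribosome biogenesis factors 7 were lower and 0 higher, with a median of -0.77. The nucleolar proteins Gnl3 (3001 against 9331, -1.64) and Nolc1 (2506 against 6592, -1.40) and the RNA polymerase I subunit Polr1b (576 against 1624, -1.49) led. Over the 4 h the list's median change was 0.86 with the wild-type label and -0.24 with the knockout label. Cytosolic ribosomal proteins had a median of -0.48, with 1 of 27 lower, Rpl12 (-1.37). Aminoacyl-tRNA synthetases (median -0.21) and initiation factors (-0.30) had 0 past 2-fold. Amino acid transporters had a median of -0.59, with Slc7a6 at -1.20 and the cystine transporter Slc7a11 at 1.97.

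**Figure D4:**
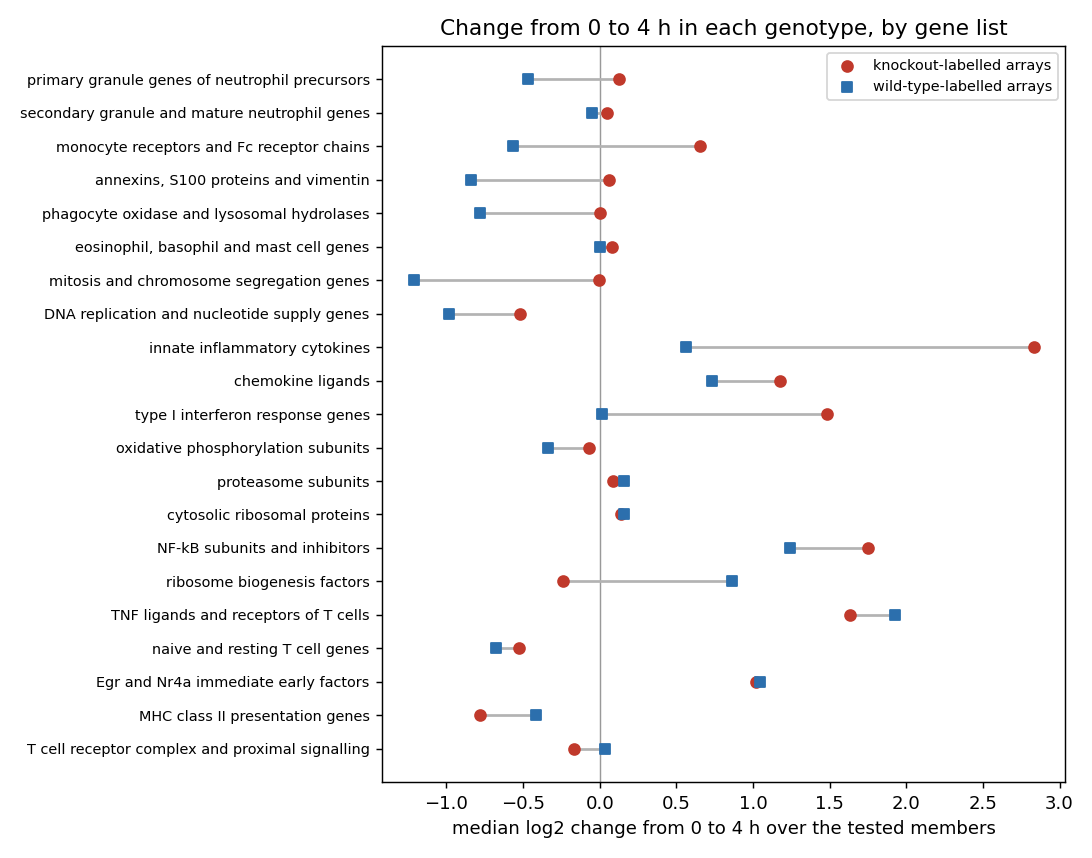
Median log2 change from 0 to 4 h (horizontal) over the tested members of 21 gene lists, in the knockout-labelled (red circles) and wild-type-labelled (blue squares) arrays. Ribosome biogenesis factors lie at -0.24 and 0.86, innate cytokines at 2.84 and 0.57 and mitosis genes at 0.00 and -1.21, while Egr and Nr4a genes nearly coincide at 1.02 and 1.05.

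Metabolic and housekeeping lists stayed close to level. Proteasome (30 tested), oxidative phosphorylation (29) and splicing (26) genes had 0 past 2-fold, with medians of 0.11, 0.33 and -0.24. Glycolysis genes had a median of 0.05 with 3 of 22 higher, the enzymes Tpi1 (5469 against 1125, 2.28), Pkm (1.15) and Pgam1 (1.07). Cholesterol and fatty acid genes had a median of 0.12 with 3 of 20 higher, Fdps (1.77), Hmgcs1 (1.12, past 2-fold by 1 of its 4 probe sets) and Mvd (1.04, by 1 of 2). The medians of the proteasome, glycolysis, cholesterol and Myc network lists turned to -0.02, -0.01, -0.01 and -0.06 under median scaling, the last from 0. In the ATF4 stress list Asns (1.61) and Vldlr (at least 2.83) were higher and Ddit3 lower (-1.69) of 18.

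Interferon response genes had caught up by 4 h. The type I list had a median of -1.07 at 0 h and 0.26 at 4 h, with changes of 1.48 in knockout-labelled and 0.02 in wild-type-labelled cells. At 4 h 5 of 24 were higher, Cmpk2 (3152 against 330, 3.25), Ifi204 (at least 2.44), Rsad2 (2.16), Oasl1 (2.10) and the antiviral GTPase Mx1 (2.09), and 1 was lower, Ifi27l2a (-1.65). Rsad2 had been lower at 0 h, 284 against 705, before 3615 against 809. The interferon-inducible GTPases were close, with a median of -0.16 and Igtp at 28891 against 30848, after 2043 against 5595. Among MHC class II genes, carried by B cells and other antigen-presenting cells, 5 of 9 were lower, with H2-Eb1 at 933 against 3328 (-1.83). The MHC class I peptide supply genes had a median of -0.32, with 1 of 11 lower. That was the heavy chain H2-K1 at 23188 against 47319 (-1.03, past 2-fold by 2 of its 4 probe sets).

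Genes reported in the literature as Gfi1 targets went both ways: 8 of 32 tested were higher and 10 lower, with a median of -0.22. Over all genes 11.8% were higher and 6.56% lower. The higher ones included Elane (4.79), Csf1r (3.84), Spi1 (3.34), the homeobox gene Hoxa9 (at least 2.77, but 0.35 by its other probe set), Cdkn1a (2.21) and Id1 (2.02). The lower ones included Rasgrp1, Ets1 (3564 against 10513, -1.56), Egr2, Egr1 and Il7r, the IL-7 receptor (3360 against 7035, -1.07). The paralogue Gfi1b gave 368 against 219 (0.75). Of Gfi1's partners, the demethylase Kdm1a differed by -0.33, its cofactor Rcor1 by -0.22 and Hdac1 by 0.19. The list that holds Gfi1, Gfi1b and these partners had 2 higher of 16 tested genes and 0 lower. That is close to the 11.8% higher over all genes. The 2 were Cbfa2t3 (1.98) and the methyltransferase Ehmt2 (1.46). For Cbfa2t3 2 of 3 probe sets were higher, and the other probe set of Ehmt2 differed by 0.21.

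The genes around Gfi1 on chromosome 5 were taken by their order in the RefSeq table. Of the 15 genes on each side 12 were tested, with a median of 0.06. Evi5, the gene adjacent to Gfi1 and known with it as a common integration site of leukaemia viruses, was the 1 higher gene, at 2046 against 241 (3.09). It had given 1250 against 326 at 0 h, with 942 against 347 and 624 against 466 on the 8 h and 24 h arrays. The other 11 lay between -0.61 (Glmn) and 0.71 (Dr1), and Rpap2, on the other side of Gfi1, differed by -0.50. What set Evi5 apart was not tested.

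Part of the 4 h difference was present at 0 h, on other arrays of the same source numbers. At 0 h 683 genes (8.08%) were higher and 571 (6.75%) lower. Of the 996 genes higher at 4 h, 471 were higher at 0 h too, 47.3% of the 4 h list and 69.0% of the 0 h list, 520 were under 2-fold and 5 were lower. Of the 555 lower genes 198 were lower at 0 h, 35.7% of the 4 h and 34.7% of the 0 h list. The granule and T cell receptor genes belong to the shared side by their values above, and Ptgs2, Acod1 and Nr4a3 to the other. Il4 was counted as under 2-fold at 0 h, but its difference of -0.84 then is a bound. Its knockout-labelled 0 h signal was under the floor (28.9 against 254), so a 2-fold gap may already have been there. At 8 h, with 905 genes (10.7%) higher and 563 (6.66%) lower, 661 of the 996 and 238 of the 555 lay past 2-fold the same way. At 24 h, with 776 (9.18%) and 428 (5.06%), these numbers were 323 and 80, and 67 and 46 genes lay past 2-fold the other way.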

How the data were processed

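RNA of 8 samples was measured on 8 arrays, 2 of them compared here. Per the labels, the authors deposited 1 signal intensity per probe set and array; the submitters' processing notes name GCOS 1.4 and MAS5, and no source used here states a role for either. Trimmed by 2%, the arrays had means of 1000.4 to 1000.5. Of 22690 probe sets 64 are controls; 20380 list 1 gene symbol, 691 several and 1555 none in the platform annotation, and 0 symbols were updated. The number of unused per-sample columns is 0.

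The floor of 141.88 (log2 7.15) is the 40th percentile of an array's signals, as a median over the 8. Probe sets above it on at least 2 of the 8 arrays were tested, and the probe set with the highest mean log2 signal stands for its gene. No test was possible with 1 array a side, and the number of arrays limits the precision. Of 1094 genes in 60 lists, 887 were tested; a gene could pass that filter through the arrays of 1 genotype alone. Genes are named as the 15 highest and 15 lowest measured on both arrays, the 8 largest bounds each way, 12 fixed genes, the extremes of each list and members the text turns on. Members and lists were chosen with earlier results of these data known. The steps were tested on simulated data. Alternatives were 2 other scalings, floors, filters, a pseudocount, a gene's median probe set and other fold thresholds. Python 3.11.15, numpy 2.4.6, pandas 2.3.3 and matplotlib 3.10.9 were used.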

Additional observations from a re-analysis of the deposited data

Results flagged for a closer look

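Some differences of the 4 h pair had the opposite sign at 24 h, each time past 2-fold on both sides; the change itself was not tested, and both pairs hold 1 array a side. The median of the DNA replication list was 1.31 at 4 h and -1.61 at 24 h. The lipid droplet gene Hilpda was -3.42 at 4 h and 2.29 at 24 h, where its signals were 5286 against 1081. Ramp3 was -2.60 and then 3.99 (3395 against 214), the death ligand gene Fasl -2.59 and 1.74 (2045 against 612), the kinase gene Txk -2.57 and 2.27 (2270 against 470), and Ccr7 -2.52 and 1.36 (32252 against 12552). Il12rb2, with its knockout-labelled 4 h signal at the floor, was at most -1.92 at 4 h and 2.21 at 24 h.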

How the results depend on the processing

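Counts moved with the floor and the threshold. List medians do not depend on the threshold and were compared over the other settings only. With the floor at the 20th percentile 2398 probe sets were higher, 2127 lower and 1176 genes lower; at the 60th percentile these were 879 and 655 probe sets, and 591 genes were higher. With the floor added to each signal before log2, 674 probe sets were lower. At 1.5-fold 2804 probe sets were higher and 2793 lower, with 1744 and 1477 genes; at 4-fold 475 and 78, with 324 and 49. Within 1.5-fold of the reported value stayed 474 of 480 list medians and 373 of 439 values of 55 named genes. Of those at least 2-fold apart as reported, 0 changed sign. Smaller list medians were checked for sign under the 2 other scalings only. Under median scaling the proteasome, glycolysis and cholesterol list medians, all near 0, changed sign. The Myc network median left 0, as given with the metabolic lists. No replicate could be left out, and no paired analysis was possible because each group has 1 array. Signals near the floor limit the small differences.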
